A study of Mus musculus with 8 samples.

Results

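The genes described here are 9 genes of transforming growth factor beta (TGF-beta) and activin signalling, taken by their symbols from the 32286 gene features of each matrix: the ligand genes Tgfb1, Tgfb2, Tgfb3 and Inhba, the receptor genes Tgfbr1 and Tgfbr2, the signal transducer Smad3, the inhibitor Smad7 and the secreted target Tgfbi. They were measured by single-cell RNA sequencing of lung adenocarcinomas taken 16 weeks after tumour initiation in KPC mice (a KP model in the design text), in which tumours were started by lentivirus given into the trachea. In the mA1 group, CRISPR activation restricted to tumour cells was aimed at the long noncoding RNA gene Malat1 with guides the labels call dRNAs, and in the Con group it was aimed at Tomato. Both groups therefore carried the same tumour model and the same activation system, and the largest tumours of each were used. The labels give 4 tumours to each group, pooled by hashtag antibodies into 2 libraries per group, and do not say whether the tumours of a library came from separate mice, so p-values measure only the spread between libraries, which may be technical.

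TGF-beta ligands are secreted as latent complexes that matrix-bound or cell-surface carrier proteins hold until integrins or proteases release them. Free ligand binds the receptor encoded by Tgfbr2, which recruits and activates the one encoded by Tgfbr1, and the pair phosphorylates SMAD2 and SMAD3, which enter the nucleus with SMAD4. Activin A, a dimer of the Inhba product, uses its own receptors and the same SMADs. SMAD7 is induced by the pathway and blocks the receptors, and Tgfbi encodes an extracellular matrix protein first found as a TGF-beta-induced gene. In mouse lung, alveolar macrophages depend on TGF-beta for their development, and in carcinomas the pathway is known both for restraining growth and for supporting invasion and immune suppression.

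The libraries held 48319272 to 74996867 UMIs (unique molecular identifiers, each standing for 1 captured transcript), and 7343 and 3773 cells of the mA1 libraries and 7054 and 5599 cells of the Con libraries passed the filters. Of these 23769 cells, 22330 fell into 23 classes named from marker genes, clustered without the 9 genes and without the other genes of the pathway, and 1439 (6.05%) stayed unnamed. Levels are given as CPM, the UMIs of a gene per 1e6 UMIs of the class. Malat1 in tumour-like epithelial cells stood at 26452 and 45828 CPM in the mA1 libraries, against 41033 and 26411 CPM in the Con libraries, a log2 fold change of 0.10 ± 0.36 (SE; edgeR adjusted p = 0.959), so the targeted transcript did not separate the groups, which are named by their labels alone. Between 108 and 330 barcodes occurred in both members of a pair of libraries, and 712 of the 962 cells kept with such a barcode lay in unnamed clusters 15 and 17. Over all cells, Xist, the transcript of the inactive X chromosome, stood at 0.615 and 1.38 CPM in the mA1 libraries and 0.460 and 1224 CPM in the Con libraries, and the Y-linked gene Ddx3y at 59.6 and 40.8 against 51.5 and 0.0837, so Con library 2 stood apart from the other 3 and its difference in sex cannot be told apart from other differences of that library. The group differences below were also fitted without Con library 2, which leaves the Con group with 1 library. Inhba in macrophage cluster 13 then had a log2 fold change of -1.24. A class has a level in each library with at least 10 of its cells.

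The promoters of Tgfb1, Tgfb2 and Inhba are shown because these ligand genes had their UMIs in different sets of classes. Each runs from 250 bases before to 50 bases after a start given in the RefSeq promoter table (build GRCm38.p6), 5′ to 3′ on the strand of the gene, with any TATAAA in capitals. They lie at chr7:25686752-25687051 on the plus strand (Tgfb1), chr1:186705940-186706239 on the minus strand (Tgfb2) and chr13:16011601-16011900 on the plus strand (Inhba). For Tgfb2 and Inhba that start lies inside the span RefSeq gives the gene, chr1:186622787-186709697 and chr13:16004256-16031609, so transcripts with starts farther upstream are not covered.
Tgfb1: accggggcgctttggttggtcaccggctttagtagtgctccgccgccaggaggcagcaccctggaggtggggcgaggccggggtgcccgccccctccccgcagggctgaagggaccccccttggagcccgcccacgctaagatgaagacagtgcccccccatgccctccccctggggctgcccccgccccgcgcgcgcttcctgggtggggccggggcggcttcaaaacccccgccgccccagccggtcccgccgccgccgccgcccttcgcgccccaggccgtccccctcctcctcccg
Tgfb2: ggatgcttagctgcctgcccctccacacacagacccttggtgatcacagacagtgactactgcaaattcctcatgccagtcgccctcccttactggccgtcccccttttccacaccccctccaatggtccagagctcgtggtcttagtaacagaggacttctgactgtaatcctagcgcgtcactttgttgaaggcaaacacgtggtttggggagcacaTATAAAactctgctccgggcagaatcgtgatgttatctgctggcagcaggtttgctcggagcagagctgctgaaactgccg
Inhba: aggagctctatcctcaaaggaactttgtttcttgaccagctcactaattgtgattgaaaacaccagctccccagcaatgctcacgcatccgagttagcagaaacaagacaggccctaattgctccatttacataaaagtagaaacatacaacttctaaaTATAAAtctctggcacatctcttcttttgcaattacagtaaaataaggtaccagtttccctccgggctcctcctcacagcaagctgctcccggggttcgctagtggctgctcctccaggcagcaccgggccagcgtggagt
The Tgfb1 promoter held 77.0% G or C and no TATAAA on either strand, while the Tgfb2 and Inhba promoters held 54.3% and 47.7% G or C and the motif 31 and 91 bases before that start. On either strand TATAAA was found in 13.6% of the 32851 promoters of the same length, whose median G or C content was 52.7%. Of the members, 7 matched the promoter table.

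Tgfb1, the ligand gene most widely found, was expressed in every class and at its highest in myeloid cells and fibroblast-like cells. Monocyte-like cells had 425 and 349 CPM in the mA1 libraries and 356 and 345 CPM in the Con libraries. Alveolar macrophage-like cells had 280 and 296 CPM in the mA1 libraries and 271 and 315 CPM in the Con libraries, and fibroblast-like cells 339 and 282 CPM against 342 and 253 CPM. The monocyte-like class led with a mean of 369 ± 37.9 CPM (SD, n = 4 libraries), and each of the next classes in the order, down to C1q macrophage-like cells at 261 ± 12.4 CPM, overlapped its neighbour. Tumour-like epithelial cells were near the bottom of that order, with 47.8 and 58.1 CPM in the mA1 libraries and 49.0 and 33.4 CPM in the Con libraries, and plasma cell-like cells were lowest at 23.6 ± 5.83 CPM. Alveolar macrophage-like cells, with 26.1% of the UMIs of all genes, held 37.8% of all Tgfb1 UMIs on average (28.3% to 53.0% by library), against 4.10% in tumour-like epithelial cells, which held 16.7% of the UMIs of all genes.

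Tgfb2, whose product shares the TGF-beta receptors but binds them with the help of the co-receptor betaglycan, was found in few cells. Fibroblast-like cells had 246 and 108 CPM in the mA1 libraries and 118 and 246 CPM in the Con libraries, so 1 library of each group was high and 1 was low. In no other class with 4 libraries did the mean exceed the 5.56 ± 2.54 CPM of tumour-like epithelial cells, which had 9.14 and 3.18 CPM in the mA1 libraries and 5.23 and 4.71 CPM in the Con libraries. A Tgfb2 UMI was seen in 59.6% of fibroblast-like cells and 10.7% of tumour-like epithelial cells, and in 0.0582% of CD8 T-like cells, taken as a class that should lack the gene. The median depth of those classes was 13141, 30341 and 4084.5 UMIs per cell, and after thinning every cell to 1000 UMIs the shares were 10.2%, 0.706% and 0%.

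Tgfb3, the remaining TGF-beta ligand gene, was also highest in fibroblast-like cells, with 139 and 114 CPM in the mA1 libraries and 102 and 154 CPM in the Con libraries. Its 4 fibroblast-like values did not overlap those of any other class. Tumour-like epithelial cells had 8.09 and 8.77 CPM in the mA1 libraries, between the 4.00 and 12.9 CPM of the Con libraries. Tumour-like epithelial cells held 47.6% of all Tgfb3 UMIs on average and fibroblast-like cells 33.6%, although fibroblast-like cells held only 0.696% of the UMIs of all genes. The fibroblast-like class had 12 to 37 cells in each library, which was too few for a test between groups. Tagln and Acta2 were among its leading genes, and mural cell markers scored second in it. Their mean log2 ratio to the other cells was 4.57, against 6.56 for fibroblast markers, so the class may also hold mural cells.

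**Figure D1:**
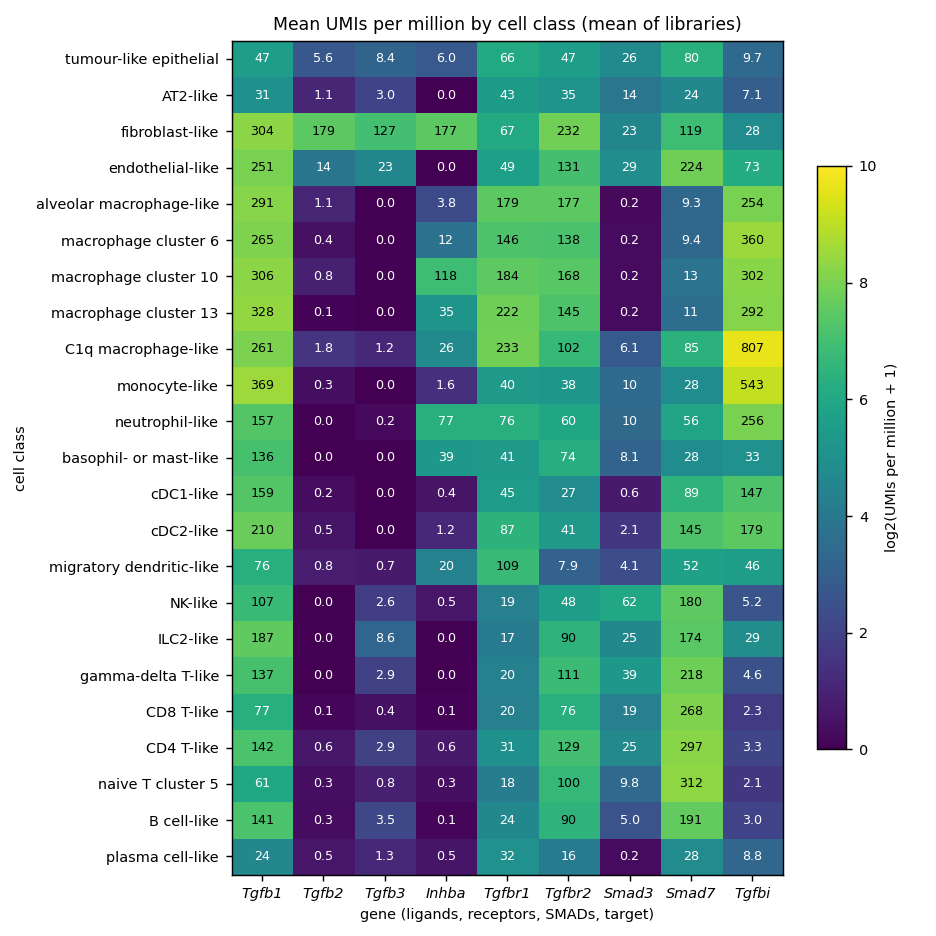
Mean level of each gene in each of the 23 cell classes, in CPM averaged over libraries with at least 10 cells; colour is log2(level + 1) and the printed number is the level itself. Columns run from ligands to receptors, SMADs and target, and Tgfb2 and Tgfb3 stand out in the fibroblast-like row, with means of 179 and 127.

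Inhba, which encodes the subunit of activin A, had its highest levels in fibroblast-like cells, macrophage cluster 10 and neutrophil-like cells, with wide spread between libraries. Fibroblast-like cells had 309 and 108 CPM in the mA1 libraries and 146 and 147 CPM in the Con libraries. Macrophage cluster 10 had 172 and 90.8 CPM in the mA1 libraries and 117 and 92.6 CPM in the Con libraries, and neutrophil-like cells 136 and 20.5 CPM against 92.3 and 59.4 CPM. In both classes the mA1 values lay outside the range of the Con values on either side, so the groups overlapped. In fibroblast-like cells mA1 library 1 was highest and mA1 library 2 lowest, and these 3 classes overlapped each other. No Inhba UMI was found in AT2-like, ILC2-like, endothelial-like or gamma-delta T-like cells, which in the last class allows up to 1.05 CPM (3 counts over the class, counting error only). The limit was higher in ILC2-like and endothelial-like cells, so absence was less certain there. They had at most 256219 and 147594 UMIs in a library, against 305544 to 865263 in gamma-delta T-like cells.

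In macrophage cluster 10 the alveolar macrophage markers scored highest of the marker sets. Their mean log2 ratio to the other cells was 0.81, against 1.53 in the alveolar macrophage-like class. The cluster was led by Inhba, Hilpda, Cxcl1, Arg1 and Tnf, among them genes of inflammation and of the response to low oxygen. Inhba had been left out of the clustering. The cluster held 13.8% and 5.05% of the alveolar macrophage-like cells and macrophage clusters 6, 10 and 13 in the mA1 libraries, and 16.4% and 12.4% in the Con libraries, but 84.5% and 47.6% of their Inhba UMIs in the mA1 libraries and 61.8% and 74.2% in the Con libraries. An Inhba UMI was seen in 34.7% and 20.3% of its cells in the mA1 libraries and 28.6% and 30.8% in the Con libraries. Macrophage cluster 13, led by Ccl17 and H2-M2, had 22.2 and 37.8 CPM in the mA1 libraries and 62.6 and 17.9 CPM in the Con libraries, and proliferating macrophage cluster 6 had 9.23 and 7.05 CPM against 24.9 and 8.46 CPM. Alveolar macrophage-like cells had 2.64 and 4.78 CPM in the mA1 libraries and 3.63 and 4.12 CPM in the Con libraries.

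Inhba UMIs were concentrated in few cells. In macrophage cluster 10 the 10 cells with most Inhba held 52.7% and 97.1% of the cluster's Inhba UMIs in the mA1 libraries and 49.7% and 72.9% in the Con libraries, with up to 98 and 58 UMIs in a cell of the mA1 libraries and up to 129 and 41 in a cell of the Con libraries. For comparison, 1.91% of alveolar macrophage-like cells (median 12692 UMIs) and 0.0582% of CD8 T-like cells (median 4084.5 UMIs) had an Inhba UMI, against 30.5% in macrophage cluster 10 (median 19249 UMIs). Thinned to 1000 UMIs per cell, the shares were 0.288%, 0% and 8.23%.

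The neutrophil-like class joined 2 clusters, which overlapped in Inhba. Cluster 14 was led by Ngp and Camp, genes of granules made in maturing neutrophils, but Ccrl2, Il1a, Cxcl2 and Il23a were also among its leading genes. It had Inhba at 229 and 18.9 CPM in the mA1 libraries and 158 and 127 CPM in the Con libraries. Cluster 3, led by Retnlg, had 76.6 and 22.2 CPM in the mA1 libraries and 21.6 and 30.8 CPM in the Con libraries. Tgfb1 did not overlap between them, at 241 and 283 CPM in the mA1 libraries and 188 and 164 CPM in the Con libraries in cluster 14, against 128 and 111 CPM and 108 and 88.5 CPM in cluster 3. In migratory dendritic-like cells Inhba stood at 49.8 and 2.36 CPM in the mA1 libraries and 25.9 and 2.63 CPM in the Con libraries, and Tgfbi at 77.4 and 16.5 CPM against 75.9 and 15.8 CPM, so that both were high in the library numbered 1 of each group.

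**Figure D2:**
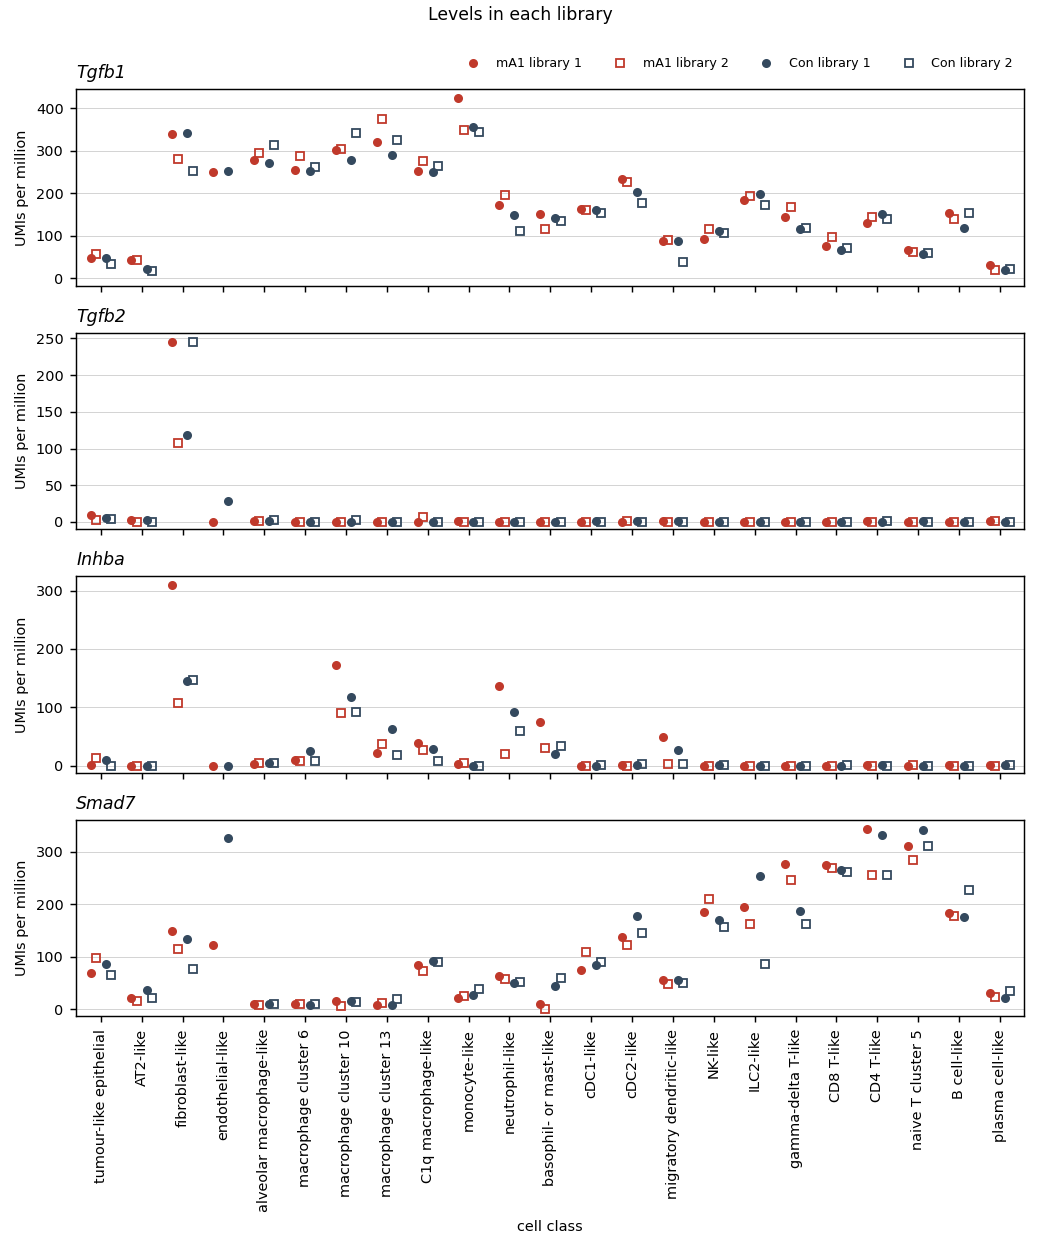
Level of Tgfb1, Tgfb2, Inhba and Smad7 in CPM (linear vertical axes) in each class; red symbols are the mA1 libraries and dark symbols, to their right, the Con libraries, filled for library 1 and open for library 2. Tgfb1 was spread over myeloid classes, Tgfb2 reached 246 in fibroblast-like cells, and Smad7 had its lowest mean in alveolar macrophage-like cells, at 7.59 to 10.0.

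The receptor genes were highest in different classes. Tgfbr1, the signalling receptor kinase, led in C1q macrophage-like cells with 218 and 243 CPM in the mA1 libraries and 233 and 237 CPM in the Con libraries, followed by macrophage cluster 13 with 220 and 244 CPM against 188 and 238 CPM, which overlapped it. Tgfbr2, the ligand-binding receptor, led in fibroblast-like cells with 250 and 138 CPM in the mA1 libraries and 206 and 332 CPM in the Con libraries, followed by alveolar macrophage-like cells with 186 and 179 CPM against 184 and 160 CPM. T-like classes had Tgfbr2 at means of 76.2 to 129 CPM, and Tgfbr1 in the same classes at 17.8 to 31.4 CPM. Migratory dendritic-like cells were lowest for Tgfbr2, with 7.87 and 7.07 CPM in the mA1 libraries and 8.63 and 7.90 CPM in the Con libraries. They overlapped plasma cell-like cells, at 15.9 ± 7.24 CPM, but not cDC1-like cells, at 27.4 ± 8.09 CPM (SD, n = 4 libraries each). Tumour-like epithelial cells had 81.4 and 54.8 CPM of Tgfbr1 in the mA1 libraries and 72.8 and 54.1 CPM in the Con libraries, and 55.0 and 40.5 CPM of Tgfbr2 against 43.7 and 48.1 CPM.

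Smad3, the transcription factor activated by the receptors, was highest in NK-like cells, with 60.4 and 57.7 CPM in the mA1 libraries and 50.6 and 79.9 CPM in the Con libraries, and these did not overlap the next class, gamma-delta T-like cells at 38.8 ± 10.7 CPM (SD, n = 4 libraries). Tumour-like epithelial cells had 23.0 and 25.1 CPM in the mA1 libraries and 25.3 and 30.7 CPM in the Con libraries. Alveolar macrophage-like cells, which had both receptor genes, had the lowest mean of Smad3, with 0.0550 and 0.0598 CPM in the mA1 libraries and 0.206 and 0.441 CPM in the Con libraries, and a Smad3 UMI was seen in 0.191% of them. Macrophage clusters 6, 10 and 13 had Smad3 at means of 0.229 to 0.242 CPM, and C1q macrophage-like cells at 6.13 ± 2.10 CPM. Smad2, which encodes the other receptor-activated SMAD of this branch, averaged 31.9 ± 2.74 CPM in alveolar macrophage-like cells and 43.9 ± 4.85 CPM in NK-like cells.

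Smad7, the inhibitory SMAD, had its highest mean in T cells. Naive T cluster 5 had 312 and 284 CPM in the mA1 libraries and 342 and 311 CPM in the Con libraries, and CD4 T-like cells had 344 and 256 CPM against 333 and 256 CPM. CD8 T-like cells were the least variable of these, with 276 and 269 CPM in the mA1 libraries and 266 and 262 CPM in the Con libraries. When mA1 library 1 was left out, endothelial-like cells led instead of naive T cluster 5, at 326 CPM from Con library 1 alone. Alveolar macrophage-like cells had the lowest mean, with 10.0 and 7.59 CPM in the mA1 libraries and 9.73 and 9.85 CPM in the Con libraries, and C1q macrophage-like cells had 83.7 and 73.3 CPM against 92.8 and 89.1 CPM. The alveolar macrophage-like class and macrophage clusters 6, 10 and 13 were the 4 lowest classes for Smad7. Of the gene's UMIs, CD8 T-like cells held 8.06% to 18.5% by library, CD4 T-like cells 7.76% to 14.6%, and the tumour-like epithelial class 10.6% to 31.2%.

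Tgfbi was highest in C1q macrophage-like cells. They had 835 and 745 CPM in the mA1 libraries and 817 and 831 CPM in the Con libraries, above monocyte-like cells at 554 and 481 CPM against 641 and 498 CPM, and these classes did not overlap. Alveolar macrophage-like cells had 260 and 215 CPM in the mA1 libraries and 206 and 332 CPM in the Con libraries. Tumour-like epithelial cells had 11.6 and 6.20 CPM in the mA1 libraries and 11.1 and 10.1 CPM in the Con libraries. Of their 371 Tgfbi UMIs, 129 lay in states 8 and 10, which were led by macrophage genes such as Chil3 and Lyz2 and by lymphocyte genes such as Ccl5 and Gzma. Their part in the difference between libraries was not tested. Without these states the values were 6.85 and 4.39 CPM in the mA1 libraries and 6.18 and 9.49 CPM in the Con libraries. Neutrophil-like cells had 272 and 252 CPM in the mA1 libraries and 246 and 254 CPM in the Con libraries, within the range of alveolar macrophage-like cells, and fibroblast-like cells had 18.2 and 30.0 CPM against 7.28 and 57.8 CPM. Between the clusters of neutrophil-like cells Tgfbi went the other way from Tgfb1, with 369 ± 64.2 CPM in cluster 3 and 122 ± 49.4 CPM in cluster 14 (SD, n = 4 libraries each).

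**Figure D3:**
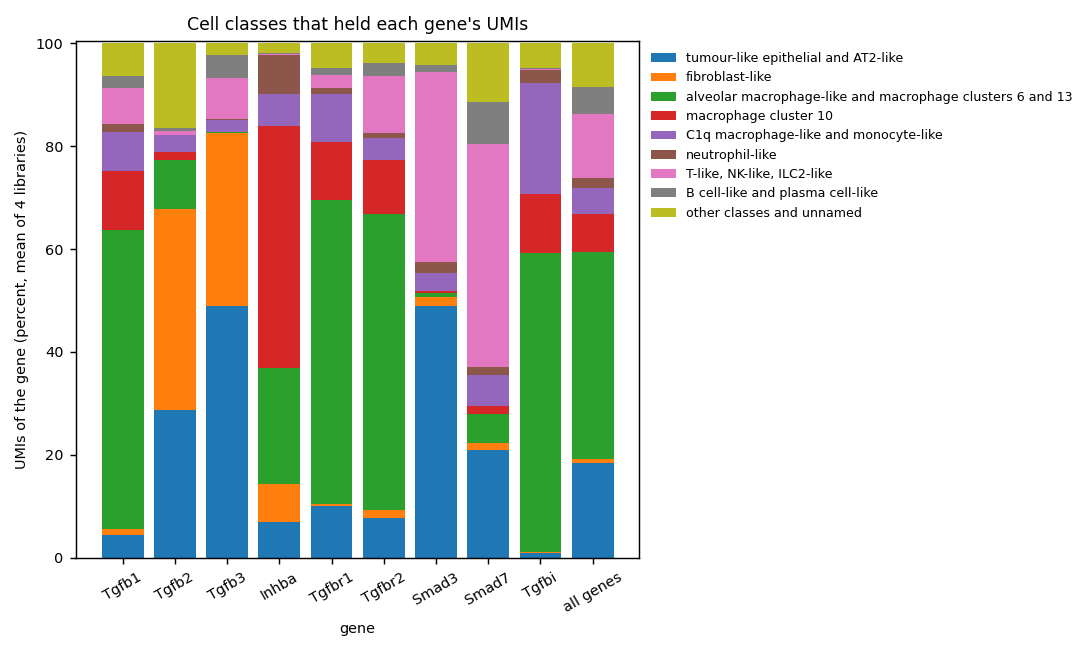
Share of each gene's UMIs held by groups of cell classes, in percent as the mean of the 4 libraries, with the share of the UMIs of all genes in the last bar. Inhba was held mostly by macrophages, 47.1% by macrophage cluster 10 alone, and Smad3 by tumour-like epithelial cells (46.6%) and lymphoid cells.

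Tumour-like epithelial cells were divided into 10 states, several of which came mostly from 1 library. State 1, led by Hopx and Ager, genes of alveolar cells, had Tgfb2 at 40.1 and 6.51 CPM in the mA1 libraries and 9.54 and 3.12 CPM in the Con libraries. In the mA1 libraries these values rested on 26 and 9 UMIs from 25 and 29 cells. In the Con libraries they rested on 48 and 2 UMIs from 185 and 17 cells. State 2 had Tgfb2 at 13.2 and 2.68 CPM in the mA1 libraries and 8.06 and 12.8 CPM in the Con libraries, while state 3, led by S100a9 and S100a8, had 0.647 and 2.43 CPM against 3.27 and 0.00. These came from 20 and 4 UMIs against 9 and 26 in state 2, and 1 and 5 against 5 and 0 in state 3. Differences between states were not tested. Of the 248 Inhba UMIs in the class, 76 came from the 135 cells of Con library 1 in state 4, at 19.5 CPM, a state led by the plasma cell genes Igkc, Jchain and Igha, and 53 from the 185 cells of that library in state 1, at 10.5 CPM. In mA1 library 2, 30 Inhba UMIs came from 39 cells of state 3, at 14.6 CPM, and 29 from 5 cells of state 5. Con library 2 had none, so the level of Inhba in tumour-like epithelial cells, at 1.41 and 12.4 CPM in the mA1 libraries and 10.2 and 0.00 CPM in the Con libraries, rested on a few states of single libraries. The part of plasma cell RNA in state 4 was not tested.

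The genes outside the pathway lists whose mean levels followed each member most closely over the 23 classes were found by Pearson correlation of log2(CPM + 1), as a description of shared cell classes. Osr1, Gm17501 and Wfdc1 followed Tgfb2 with r of 0.97, 0.96 and 0.96, and all were highest in fibroblast-like cells. Glis2, Mill2 and Gpx7 followed Tgfb3 (r of 0.91 each) and were highest there too. Hip1 led for Tgfb1 (0.88), Ftl1 for Tgfbr1 (0.92), Abcd4 for Tgfbr2 (0.80), Fam20c for Inhba (0.81), Hk1 for Smad3 (0.91), Grap for Smad7 (0.88) and Csf2ra for Tgfbi (0.95). The points share libraries and depth, so no p is given.

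The study asked if raised Malat1 changes the cells around the tumour. The comparison of mA1 with Con here asked whether the genes differed between groups within a class. UMIs were summed per class and library and tested with edgeR's quasi-likelihood test in the 18 classes with at least 20 cells in every library, and p-values were adjusted by the Benjamini-Hochberg method over all genes tested in the class. After the filter on low counts, Tgfb1, Tgfbr1 and Smad7 were tested in 18 classes, Tgfbr2 in 17, Tgfbi in 11, Inhba and Smad3 in 8 each, Tgfb2 in 2 and Tgfb3 in 1. Of these 101 tests, 0 passed an adjusted p of 0.05, and over all genes and classes 29 of 146285 tests passed (0.0198%). By class the share of all genes that passed was 0.103% in plasma cell-like cells, 0.0914% in tumour-like epithelial cells, 0.0586% in naive T cluster 5, 0.0388% in NK-like, 0.0218% in monocyte-like, 0.0207% in migratory dendritic-like, 0.0162% in neutrophil-like and 0.0128% in B cell-like cells, 0.0105% in macrophage cluster 13 and 0 in the other 9 classes. The lowest adjusted p of a member was 0.732, 3 tests of members had an unadjusted p under 0.05 (2.97%, against 4.15% of all tests), and DESeq2 called 0 of 117, with 2 at an unadjusted p under 0.05. The median log2 fold change of the members' tests was 0.04, and the medians of all genes in a class ran from -0.01 to 0.01. In 88 of the 101 tests the log2 fold change was within 0.5 of 0.

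Tgfb1 had a log2 fold change above 0 in 15 of its 18 classes, with a median of 0.17 and a highest value of 0.47. In CD8 T-like cells it had 75.2 and 96.9 CPM in the mA1 libraries and 66.8 and 71.0 CPM in the Con libraries. The log2 fold change there was 0.39 ± 0.17 (SE; edgeR adjusted p = 0.732, unadjusted p = 0.0297). This class joined clusters 9 and 12, which were not tested separately. In cluster 9 Tgfb1 had 88.5 and 127 CPM in the mA1 libraries and 69.3 and 83.7 CPM in the Con libraries. In cluster 12 Tgfb1 had 55.2 and 56.6 CPM in the mA1 libraries and 63.3 and 56.2 CPM in the Con libraries, which overlapped. In gamma-delta T-like cells it had 145 and 167 CPM in the mA1 libraries and 117 and 118 CPM in the Con libraries, a log2 fold change of 0.41 ± 0.19 (edgeR adjusted p = 0.956, unadjusted p = 0.0487). Neutrophil-like cells had 172 and 196 CPM in the mA1 libraries and 150 and 111 CPM in the Con libraries (log2 fold change 0.41 ± 0.25, edgeR adjusted p = 1.00). In tumour-like epithelial cells the groups overlapped and the log2 fold change was 0.35 ± 0.23 (edgeR adjusted p = 0.751). The classes share libraries, so the count of classes in 1 direction is a description.

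Smad7 in gamma-delta T-like cells had the lowest unadjusted p of the members. It stood at 277 and 245 CPM in the mA1 libraries and 186 and 163 CPM in the Con libraries, a log2 fold change of 0.61 ± 0.17 (SE; edgeR adjusted p = 0.929, unadjusted p = 0.00274). By tumour, taken as the cells of a library with 1 hashtag, the values were 222, 340, 274 and 212 CPM in mA1 tumours and 186, 186, 167 and 153 CPM in Con tumours, which did not overlap. The test over tumours gave an edgeR adjusted p of 0.178. That test counted the tumours of a library as independent, although they share the library. When each library was left out in turn, the log2 fold change ran from 0.51 to 0.74. The summed level of the 6 gamma-delta T markers, all at 1 CPM or more, was 4056 and 2556 CPM in the mA1 libraries and 2695 and 1548 CPM in the Con libraries, and its part in this value and in that of Tgfb1 was not tested. Over all 18 classes, gamma-delta T-like cells included, Smad7 was divided, with 9 of 18 log2 fold changes above 0 and a range of -0.52 to 0.61.

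The other members gave values on either side of 0 or rested on few counts. Inhba had log2 fold changes of 0.36 ± 0.32 in macrophage cluster 10, -0.71 ± 0.83 in macrophage cluster 13, -1.07 ± 0.51 in macrophage cluster 6, 0.09 ± 0.93 in neutrophil-like cells and 0.43 ± 2.14 in tumour-like epithelial cells (SE; edgeR adjusted p of 0.973 to 1.00). The value in macrophage cluster 6 passed the threshold when no filter on low counts was used (adjusted p = 0.0267), where Con library 1, at 24.9 CPM, stood apart from the other 3, and without that library the log2 fold change was 0.00 (adjusted p = 0.999). The log2 fold change in macrophage cluster 13 was -1.24 without Con library 2 and 0.66 without Con library 1. Tgfbr1 in migratory dendritic-like cells, at 93.1 and 186 CPM in the mA1 libraries and 121 and 34.2 CPM in the Con libraries (log2 fold change 0.82 ± 0.65, edgeR adjusted p = 1.00), passed without Con library 1 (2.03, adjusted p = 9.24e-04). Tgfbi in plasma cell-like cells, at 30.4 and 0.00 CPM in the mA1 libraries and 2.98 and 1.75 CPM in the Con libraries, was not tested after the filter and passed when mA1 library 2 was left out (3.61, edgeR adjusted p = 1.26e-08). Smad3 in tumour-like epithelial cells, lower in both mA1 libraries, had a log2 fold change of -0.24 ± 0.20 (edgeR adjusted p = 0.824), and Tgfb2 there one of 0.25 ± 0.45 (edgeR adjusted p = 0.923).

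In 26 of the 101 tests the libraries of the groups did not overlap, with both mA1 libraries above both Con libraries in 16 and below in 10. Over all genes and classes 14.7% of tests had both mA1 libraries above and 17.5% had both below. Tgfb1 accounted for 5 of the 16, and Smad3 for 3 of the 10.

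**Figure D4:**
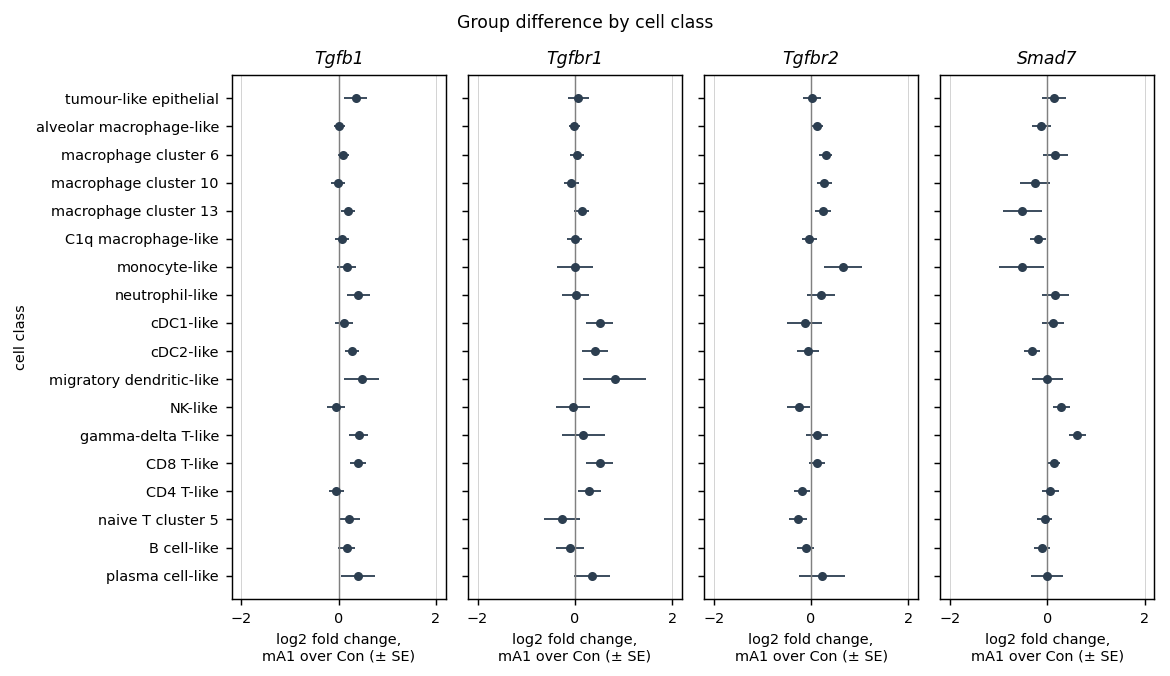
Log2 fold change of mA1 over Con with its standard error from edgeR for Tgfb1, Tgfbr1, Tgfbr2 and Smad7, by cell class, with a line at 0; Tgfbr2 was not tested in migratory dendritic-like cells. Tgfb1 lay above 0 in 15 of 18 classes, and no value passed an adjusted p of 0.05.

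The rest of the pathway was described from 65 further genes in 6 lists (other ligands, latency and activation, other receptors, other SMADs, inhibitors and targets), of which 62 reached 1 CPM in at least 1 class. Fibroblast-like cells had the highest level of 27 of the 62, among them 6 of the 11 genes of latency and activation and 11 of the 21 targets. Col1a1, Col1a2 and Col3a1 of the targets and Dcn of the inhibitors were also markers used to name that class. For those genes a high level there was set by the naming. The share of all genes that were highest in fibroblast-like cells was not counted. Of the latency and activation list, Ltbp2 stood at 780 and 732 CPM in fibroblast-like cells of the mA1 libraries. In those of the Con libraries it stood at 1065 and 590 CPM. Fst, which encodes the activin-binding protein follistatin, stood at 980 and 834 CPM in fibroblast-like cells of the mA1 libraries and 619 and 975 CPM in those of the Con libraries. Outside fibroblast-like cells, Nrros, a carrier of latent TGF-beta on myeloid cells, was highest in monocyte-like cells at 149 ± 16.7 CPM. Itgb6, a subunit of a TGF-beta-activating integrin, was highest in tumour-like epithelial cells at 55.7 ± 15.8 CPM. Itgae, a target gene in T cells, was highest in cDC1-like cells at 379 ± 46.7 CPM (SD, n = 4 libraries each). Thbs1, whose product can activate latent TGF-beta, had 1465 and 1070 CPM in neutrophil-like cells of the mA1 libraries and 1356 and 3182 CPM in those of the Con libraries. It had 1307 and 1044 CPM in fibroblast-like cells of the mA1 libraries and 1704 and 1437 CPM in those of the Con libraries, so these classes overlapped.

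Between groups, 0 of the 476 tests of these genes passed in either direction with edgeR, 41 had an unadjusted p under 0.05 (8.61%, against 4.15% of the tests of all genes), and DESeq2 called 6 of 626, against 119 of 188162 for all genes (0.0632%). In tumour-like epithelial cells, edgeR called 0 of 43 and 0.0914% of all genes, and DESeq2 called 5 of 45 and 0.633% of all genes. There Gdf15, a stress-induced ligand of the family, had 118 and 101 CPM in the mA1 libraries and 246 and 252 CPM in the Con libraries. Its log2 fold change was -1.22 ± 0.17 (SE; edgeR adjusted p = 0.0693, DESeq2 adjusted p = 1.09e-07). The Id genes, which encode inhibitors of differentiation and answer mainly to the BMP branch of the family, were lower in both mA1 libraries. Id1 had 126 and 119 CPM in the mA1 libraries and 188 and 258 CPM in the Con libraries (edgeR adjusted p = 0.264, DESeq2 adjusted p = 0.0288). Id2 had 86.7 and 103 CPM in the mA1 libraries and 183 and 168 CPM in the Con libraries (edgeR adjusted p = 0.212, DESeq2 adjusted p = 0.0103), and Id3 had 90.4 and 138 CPM against 243 and 215 CPM (edgeR adjusted p = 0.349, DESeq2 adjusted p = 0.0296). Itga1, an integrin gene of the target list, had 10.6 and 10.3 CPM in the mA1 libraries and 33.8 and 54.9 CPM in the Con libraries (log2 fold change -2.11 ± 0.28, edgeR adjusted p = 0.0766, DESeq2 adjusted p = 2.08e-06). Pmepa1, a feedback inhibitor of SMAD signalling, was higher in both mA1 libraries, at 460 and 350 CPM against 294 and 282 CPM, but passed with neither tool (edgeR adjusted p = 0.561, DESeq2 adjusted p = 0.492). So was Inhbb, of the other ligands, at 12.1 and 10.4 CPM in the mA1 libraries and 4.26 and 5.47 CPM in the Con libraries. Its log2 fold change was 1.19 ± 0.28 (edgeR adjusted p = 0.267, DESeq2 adjusted p = 0.390). The remaining DESeq2 call was Fn1, the fibronectin gene, in macrophage cluster 13, with 586 and 472 CPM in the mA1 libraries and 822 and 1174 CPM in the Con libraries (log2 fold change -0.89 ± 0.17, edgeR adjusted p = 0.201, DESeq2 adjusted p = 0.0247). In cDC2-like cells Fn1 was on the other side, with 75.9 and 48.5 CPM in the mA1 libraries and 21.6 and 18.9 CPM in the Con libraries (log2 fold change 1.63 ± 0.28, edgeR adjusted p = 0.837), and it passed there without the filter on low counts (edgeR adjusted p = 3.04e-05) and without mA1 library 2 (edgeR adjusted p = 0.00449). Id2, Id3 and Itga1 in tumour-like epithelial cells and Fn1 in cDC2-like cells were not among the 4 genes of their list with the highest level in the class and were named after their values were seen. The states of the tumour-like epithelial cells were unevenly divided over libraries, with 536 of the 993 cells in Con library 1, whose part in these values was not tested.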

How the data were processed

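UMI counts per gene and barcode for 4 gene expression libraries (2 mA1, 2 Con) were deposited by the authors as 10x matrices, made with Cell Ranger 6.0.1 on mm10, per the submitters' processing notes. The kit was 10x 3' version 3, per the labels' protocols. The deposited counts are raw and whole. Feature and barcode tables were used only as names.

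Barcodes with at least 500 UMIs, 250 genes and at most 15% mitochondrial UMIs were kept. Cells with both hashtags (297, 112, 302 and 209 for mA1 libraries 1 and 2 and Con libraries 1 and 2) were left out, as were Scrublet calls (171, 31, 77 and 0; it did not work in Con library 2). Clusters came from 2000 variable genes, 30 components, 15 neighbours and Leiden resolution 1 (scanpy 1.11.5, leidenalg 0.10.2), without the 9 genes, the pathway lists, Malat1, mitochondrial, ribosomal and sex-linked genes, and were named from marker lists by hand. A difference from the study may come from these rebuilt names. Free RNA was not removed.

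Group tests used edgeR 4.0.16 (quasi-likelihood, TMM scaling, filterByExpr, two-sided) on counts summed per class and library, with DESeq2 1.42.0 as an alternative. The fit was tested on simulated data. Intervals and limits cover counting error only. The members, gene lists and tests were chosen with earlier results of these data known. Genes were named by a rule: the members in every class, pathway genes that passed in a class or otherwise at most 4 of each list with the highest mean level in the class, and the 3 genes most like each member in level. Exceptions are given in the report. Alternatives were tumours as replicates, a replicate block, other scaling, other filters, leaving out each library, and other sets of epithelial cells. The antibody counts served only to assign hashtags. Promoters came from RefSeq, build GRCm38.p6.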

Additional observations from a re-analysis of the deposited data

Results flagged for a closer look

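By tumour, Tgfb1 in neutrophil-like cells was 126 CPM in 1 mA1 tumour, apart from the 186 to 196 CPM of the other mA1 tumours, while Inhba in the same class was 184 CPM in another mA1 tumour, apart from the 20.7 to 26.5 CPM of the others. These were 2 of 16 groups of 4 tumours examined, and chance sets apart about 1 in 20 such groups.

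Tgfbr2 and Smad7 each had classes on both sides. For Tgfbr2, both mA1 libraries were above both Con libraries in 4 classes (macrophage clusters 10 and 6, monocyte-like and neutrophil-like cells) and below both in 4 (B cell-like, CD4 T-like and NK-like cells and naive T cluster 5). Smad7 was above in 4 classes (CD8 T-like, NK-like, gamma-delta T-like and neutrophil-like cells) and below in 3 (C1q macrophage-like, cDC2-like and monocyte-like cells). Over all genes and classes 14.7% of tests had both mA1 libraries above and 17.5% both below; Tgfbr2 was tested in 17 classes and Smad7 in 18. The differences between classes were not tested.

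Among the unnamed clusters, Tgfb2 stood at 236.5 CPM over the 498 cells of cluster 15, from 70 UMIs, with 257 and 162 CPM in the mA1 libraries and 429 and 273 CPM in the Con libraries. That cluster was led by Ttr and Enpp2 and held many of the cells whose barcode occurred in more than 1 library. Its cells were shallow, with a median of 578 UMIs, and their median depth was 0.13 of that of their own library. What these cells were was not tested. Smad7 stood at 349 CPM over the 69 cells of cluster 29, led by interferon-induced genes such as Ifit1, and at 391 CPM over the 36 cells of cluster 31, which carried B cell and T cell markers.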

How the results depend on the processing

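Over the 18 classes, 29 genes were called by edgeR, 787 without a filter on low counts, 119 with DESeq2, and 225 to 885 when 1 library was left out, which leaves an arm with 1 sample assumed to vary like the other group. With tumours as replicates 44 were called, and 78 when Con library 2 was also left out, against 10 in the same classes with libraries. The replicate block called 132. The labels do not say that equal library numbers pair the samples. The deviations of same-numbered libraries correlated from -0.142 to 0.132 over classes. With 2 libraries per group, and Con library 2 apart from the others in Xist and Ddx3y, these values cannot decide whether equal numbers mark a pair. A crossed replicate block in neutrophil-like cells called 12 genes against 1. Members called were 0, against 1 without the filter and 0 to 1 when a library was left out. Tests of the other pathway genes called were 0, against 12 without the filter, 2 with the replicate block, 6 with DESeq2, 3 to 16 when a library was left out, 1 without cells whose barcode was shared and 1 with tumours and no Con library 2.

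Of 13 log2 fold changes followed over 169 alternative values, 12 values changed sign and 7 differences never did. When a library was left out, Inhba ran from -1.95 to 8.67 in tumour-like epithelial cells (-0.48 without Con library 2), -1.58 to 0.00492 in macrophage cluster 6, -0.20 to 0.69 in macrophage cluster 10, -1.24 to 0.66 in macrophage cluster 13 and -1.97 to 0.76 in neutrophil-like cells (-0.039 without Con library 2). Tgfb2 in tumour-like epithelial cells ran from -0.59 to 0.80. Inhba in neutrophil-like cells was also -0.23 with the replicate block, -0.21 with the crossed one, -0.017 with DESeq2 and -0.070 with tumours and no Con library 2. The causes were not tested. As a mean over cells scaled to 10000 counts, Tgfb1 in monocyte-like cells was 421 CPM and Tgfbi in C1q macrophage-like cells 759 CPM, against 369 and 807 CPM, the only 2 of 72 alternative levels to move by more than 1 SD. Depth limited the tests of Tgfb2 to 2 classes and of Tgfb3 to 1.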
